A study of Mus musculus with 2 samples.

Results

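Aminoacyl-tRNA synthetases are the enzymes that join each amino acid to its tRNA, and their transcripts were examined in eosinophils of the mouse bone marrow. The members were taken by name, as the gene symbols of the cytosolic and mitochondrial enzymes, and 38 of the 23343 genes in the tables matched: 19 enzymes of the cytosol, 17 of the mitochondria, and Gars and Kars, whose products serve both compartments. The rule used names and no measured value, but it was set with earlier results of these data known. The cells were granulocytes carrying CCR3 and SiglecF, sorted from pooled marrow of naïve C57BL6J mice at homeostasis. Poly(A) RNA was sequenced in 2 libraries of a single group, here called sort 1 and sort 2. The labels do not say how many mice each pool held or whether the libraries came from separate mice. Reads of sex-linked genes, given below, differed between the libraries as between female and male mice.

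In animal cells most synthetases are encoded by separate nuclear genes for the cytosol and for the mitochondria, and the mitochondrial enzyme is imported to translate the few proteins of the respiratory chain that the mitochondrial genome encodes. Several cytosolic enzymes sit in a multisynthetase complex, held together by scaffold proteins that have no synthetase activity. The family falls into structural class I and class II, which differ in the fold of the active site. Many of the cytosolic genes are known targets of ATF4, the transcription factor of the amino acid response.

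The libraries held 10087743 reads in sort 1 and 9264150 in sort 2. All 10 eosinophil markers examined were above an RPKM of 1 in both sorts (RPKM is the read count divided by transcript length and by library size), with medians of 95.9 and 111, and so were all 10 neutrophil markers, with medians of 114 and 131. Erythroid markers had medians of 0.267 and 0.539, T and NK cell markers 0.0965 and 0.0857, and monocyte and macrophage markers 4.64 and 1.88. Of the 5 T and NK cell markers only Nkg7 was above an RPKM of 1 in both sorts, at 9.81 and 10.996. No B or plasma cell marker exceeded 2.76. The 8 monocyte and macrophage markers all had lower scaled counts in sort 2, with a summed level of 46.7 RPKM in sort 1 and 32.1 in sort 2 and with C1qa at 0 in sort 2, and the cycling cell markers Mki67 and Top2a had higher ones. Xist had 47487 reads in sort 1 and 5 in sort 2, while 4 genes of the Y chromosome had reads in sort 2 and none in sort 1. Sex, marker content and sort therefore cannot be told apart in differences between the libraries. Fewer cells of a type and less RNA per cell cannot be told apart either. P-values on these counts compare the libraries and not conditions.

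Synthetase transcripts were present at low to moderate levels, with Lars2 far above the rest. Members were called detected where their RPKM reached 1 in each sort. This held for 20 of 38, beside 30.2% of all genes. Among the 12347 genes whose reads in the pair of libraries summed to 10 or more, as they did for every member, 7044 were detected. The median of all 38 members was 1.48 RPKM in sort 1 and 1.28 in sort 2, and over those 12347 genes it was 1.66 and 1.55. Every member had reads in both libraries. All of them together took 0.399% of the reads in sort 1 (95% interval by Wilson, 0.395 to 0.403) and 0.140% in sort 2 (0.137 to 0.142). Without Lars2 the other 37 took 0.0814% (0.0796 to 0.0831) and 0.0891% (0.0872 to 0.0911). These intervals reflect counting error alone, because without molecular identifiers several reads can stem from 1 molecule.

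**Figure D1:**
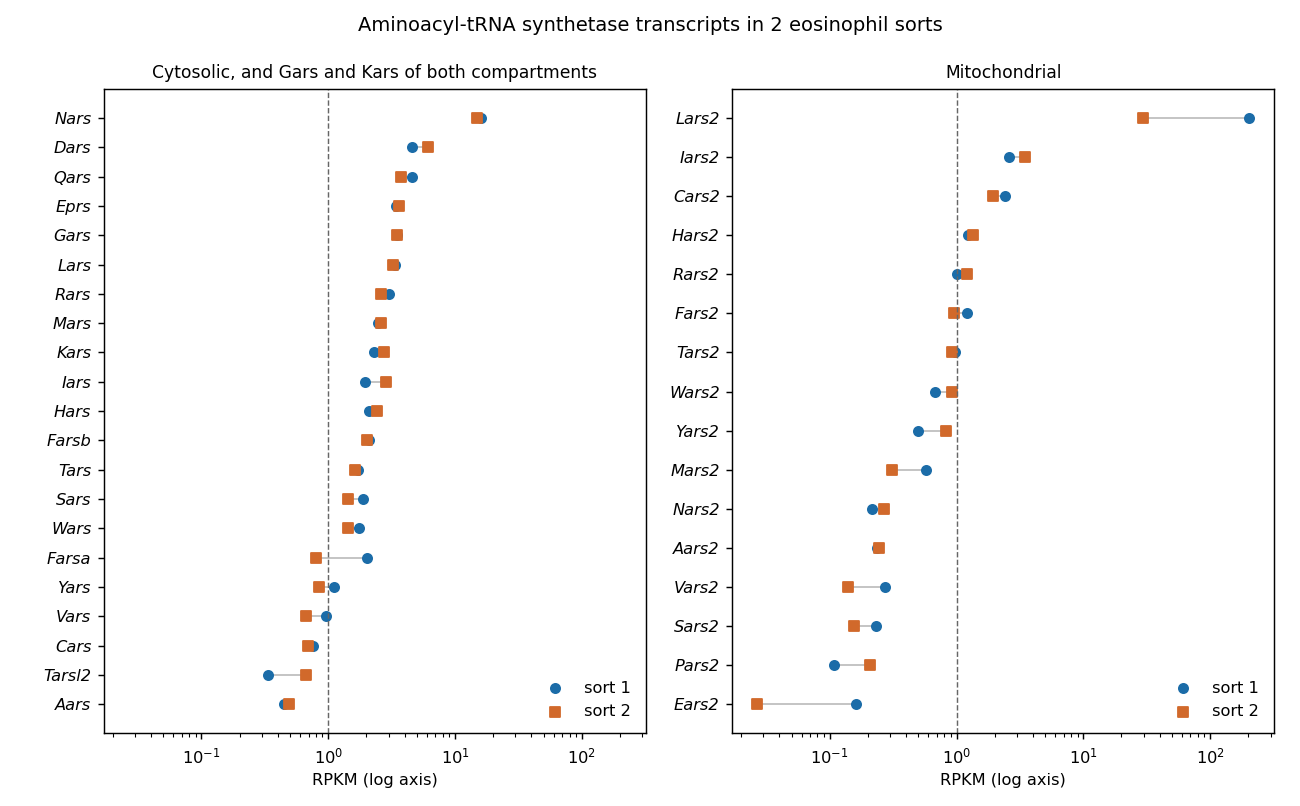
RPKM of 37 of the synthetase genes on a log axis, with circles for sort 1, squares for sort 2 and a grey line joining them; the dashed line marks an RPKM of 1. Lars2 sits at 204 and 29.6 RPKM, and Nars leads the cytosolic enzymes at 16.1 and 14.9.

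Cytosolic enzymes were mostly detected, 13 of 19, with medians of 2.04 and 2.03 RPKM. Nars, which charges the tRNA for asparagine, led them with 16.1 RPKM in sort 1 and 14.9 in sort 2, from 1729 and 1606 reads. The next level belonged to Dars, the aspartate enzyme, with 4.59 and 6.18 RPKM. Qars, the glutamine enzyme, had 4.56 and 3.74 RPKM. Nars was therefore the highest cytosolic member in each sort, and its values there lay within 1.03-fold of each other after scaling.

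Eprs, a bifunctional protein that charges the tRNAs for glutamate and proline, had 3.40 and 3.62 RPKM. Lars, the cytosolic leucine enzyme, had 3.39 and 3.24 RPKM. The order of Qars, Eprs and Lars was the same in both sorts, but in sort 2 Qars and Eprs were only 3.74 and 3.62 apart. At the low end were Aars, the alanine enzyme, with 0.452 and 0.491 RPKM, Tarsl2, a threonine enzyme related to Tars, with 0.332 and 0.671, and Cars, the cysteine enzyme, with 0.756 and 0.696. The remaining cytosolic enzymes lay between 0.670 and 3.02 RPKM.

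Gars and Kars make both their cytosolic and mitochondrial enzymes from a single gene each. Gars, for glycine, had 3.51 and 3.46 RPKM. Kars, for lysine, had 2.29 and 2.75 RPKM. Each gene had 1 row in the tables, so forms made for the different compartments were not separated.

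The enzymes of the multisynthetase complex were all detected. These 8, namely Eprs, Iars, Lars, Mars, Qars, Rars, Kars and Dars, had medians of 3.21 and 3.04 RPKM and ranged from 1.97 to 4.59 in sort 1 and from 2.61 to 6.18 in sort 2. Of the 3 scaffold proteins, Aimp1 had 3.87 and 2.13 RPKM and Aimp2 had 1.56 and 1.13, and the third, Eef1e1, stayed under 1 in both sorts. By structural class, 10 of 18 class I and 9 of 19 class II enzymes were detected, with medians of 1.43 and 1.31 against 1.24 and 0.958 RPKM. Eprs, which joins both classes in a single chain, was left out of this count.

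Phenylalanyl-tRNA synthetase of the cytosol is built from an alpha subunit, Farsa, and a beta subunit, Farsb. In sort 1 the 2 transcripts were alike, at 2.04 RPKM for Farsa and 2.09 for Farsb. In sort 2 Farsb was at 2.03 RPKM and Farsa was at 0.794. Whether the ratios of the subunits differ between the sorts was not tested.

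Qars and Wars had several rows, for transcripts with different starts. The longer transcript of Qars, which starts at position 108508005 of chromosome 9 (mm10), had 114 reads in sort 1 and 26 in sort 2, and the shorter one, which starts at 108509479, had 299 and 304. The summed Qars counts had a log2 ratio of sort 2 to sort 1 of -0.25, and the shorter row alone had 0.09. The 3 rows of Wars, the tryptophan enzyme, had 50, 64 and 50 reads in sort 1 and 43, 49 and 43 in sort 2. How the authors divided reads between such rows is not stated in the labels or files, so values of single rows are uncertain and were not tested.

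Mitochondrial enzymes had a lower median than the cytosolic ones. Of the 17, 5 were detected, namely Lars2, Iars2, Cars2, Hars2 and Rars2, and the class medians were 0.574 and 0.832 RPKM. On the log2(RPKM + 1) scale the cytosolic median exceeded the mitochondrial median by 0.95 in sort 1 and 0.72 in sort 2, a mean difference of 0.84 ± 0.16 (SD, n = 2 sorts). The classes hold different genes, so this difference was not tested.

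Iars2, the mitochondrial isoleucine enzyme, had 2.58 and 3.45 RPKM. Cars2, for cysteine, had 2.43 and 1.94 RPKM, and Hars2, for histidine, had 1.24 and 1.36. Rars2, for arginine, lay at the detection minimum with 1.01 and 1.20 RPKM. Fars2, the mitochondrial phenylalanine enzyme, passed in sort 1 only, with 1.21 and 0.958 RPKM. Below it, the other members ranged from 0.108 to 0.975 RPKM in sort 1 and from 0.0267 to 0.926 in sort 2.

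By the mean of the sorts, the lowest were Ears2 with 0.161 and 0.0267 RPKM, Pars2, for proline, with 0.108 and 0.208, and Sars2, for serine, with 0.233 and 0.155. Ears2 is the mitochondrial glutamate enzyme. It also loads glutamate onto the mitochondrial tRNA for glutamine, which the GatCAB amidotransferase then converts. No mitochondrial glutaminyl-tRNA synthetase is among the members. The subunits of that amidotransferase, chosen for naming after their values were seen, were at 0.714 and 0.650 RPKM for Qrsl1, 0.428 and 0.480 for Pet112, and 2.86 and 5.27 for Gatc. All 3 had higher values than Ears2 in each sort. Ears2 had the lowest mean RPKM of all members, from 12 and 2 reads, so little can be read from this order.

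For 14 amino acids the tables held a cytosolic enzyme and a mitochondrial partner. The cytosolic transcript had the higher RPKM in both sorts for 11 pairs, with Yars and Yars2 counted although nearly level in sort 2, and the mitochondrial one for 3. Nars exceeded Nars2 by 74.3-fold in sort 1 and 55.6-fold in sort 2. Sars exceeded Sars2 by 8.09-fold and 9.25-fold.

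At the other end, Yars and Yars2, for tyrosine, differed by 2.24-fold in sort 1 and by 1.01-fold in sort 2. Iars reached 0.763 and 0.824 of the level of Iars2. Cars reached 0.311 and 0.358 of Cars2. Lars reached 0.0166 and 0.109 of Lars2, the lowest ratio of the 14 in both sorts. The partners are different transcripts of different lengths, and the pairs were compared per length and without a test.

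**Figure D2:**
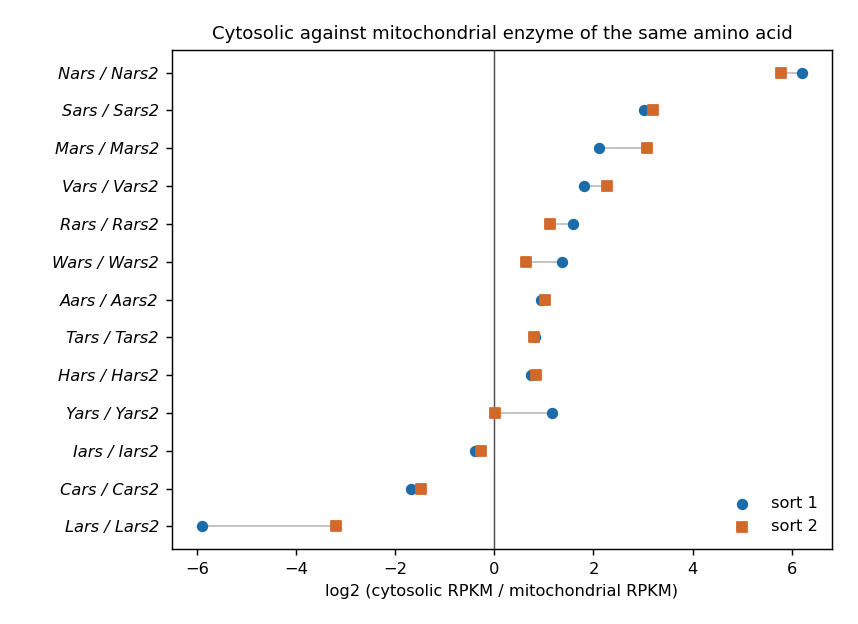
Log2 ratio of the RPKM of the cytosolic enzyme to that of its mitochondrial partner for 13 amino acids, with circles for sort 1 and squares for sort 2. Nars over Nars2 is at 6.22 and 5.80, and Lars over Lars2 is at -5.91 and -3.19.

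Hars and Hars2 lie head to head on opposite strands, and the rows of the tables placed their starts 75 bases apart. Hars had 2.09 and 2.43 RPKM against 1.24 and 1.36 for Hars2, so the transcript in each direction kept its place in both sorts. The libraries were stranded, but whether the authors' counting used strand is not stated in the labels or files. Where transcripts on opposite strands overlap, reads of one may have entered the other. GENCODE models of Hars and Hars2 overlap over 195 bases and those of Mars and Ddit3 over 67 bases. The counted rows of Hars and Hars2 did not overlap. The Hars2 model has 3336 bases, against 3073 implied by its count and RPKM. The first 89 bases of the GENCODE model of Ears2 match Ubfd1 on the opposite strand at 100% identity. That model has 2046 bases against 1853 implied, so it too may not be the counted transcript.

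Lars2, mitochondrial leucyl-tRNA synthetase, stood apart from the other mitochondrial enzymes in each sort. It had 32055 reads and 204 RPKM in sort 1, and 4670 reads and 29.6 RPKM in sort 2. The other 16 had a median of 0.535 RPKM in sort 1, with a range from 0.108 for Pars2 to 2.58 for Iars2, and a median of 0.650 in sort 2, with a range from 0.0267 for Ears2 to 3.45 for Iars2. Lars2 was thus 381 times their median in sort 1 and 45.6 times in sort 2. Against Iars2, the highest of them, it was 79.2 and 8.60 times.

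Among all genes Lars2 ranked 28 by RPKM in sort 1 and 387 in sort 2. It held 79.6% of all synthetase reads in sort 1 (95% Wilson interval 79.2 to 80.0) and 36.1% in sort 2 (35.3 to 37.0). The reads of the other 37 members were nearly equal in number, 8207 and 8256.

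Rn45s, the precursor of ribosomal RNA, differed between the libraries in the same direction. It had 914623 reads in sort 1 and 89209 in sort 2, or 9.07% (9.05 to 9.08) and 0.963% (0.957 to 0.969) of all reads. Lars2 reads amounted to 3.50% of the Rn45s reads in sort 1 and 5.23% in sort 2.

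The genes beside Lars2 did not share its level. Lars2 spans chromosome 9 from 123366940 to 123462664 on the plus strand (mm10). On the side of its end, Limd1 had 2.15 and 2.31 RPKM, Sacm1l 2.71 and 3.04, and Slc6a20b 0.338 and 0.270. On the side of its start, Tmem158, Cdcp1 and Clec3b had at most 5 reads in either sort, and Exosc7, the nearest detected gene there, had 1.45 and 1.66 RPKM. No tested neighbour differed between the sorts by a fold of 2; their log2 ratios of sort 2 to sort 1 ran from -0.24 to 0.26, and Sacm1l alone had an adjusted p under 0.05 (0.0489, exact binomial test).

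The Lars2 transcript in GENCODE has 21 exons and 3894 bases, and the length implied by its count and RPKM was 3895. Its 3' untranslated region, of 986 bases after the stop codon, holds a stretch shared with other genes. From 123462048 to 123462119, in the last exon, 72 bases matched the noncoding gene Gm15564 of chromosome 16 at 98.6% identity and in the same orientation. A wider stretch from 123461933 to 123462119 matched the unclassified transcript AA474408 at 80.1% identity. Neither of those genes was analysed here, and none of the 4 GENCODE genes that overlap the Rn45s interval matched Lars2 in this search. The Rn45s sequence itself was not searched, so a match of Lars2 to it was not tested. How many Lars2 reads fell in the shared stretch was not tested, nor was the part of ribosomal RNA in its count. The Lars2 level is therefore uncertain.

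For 19 of 38 members the GENCODE transcript was within 2% of the length the tables imply. In that set 5, Lars2, Iars, Mars and Wars2 among them, held a stretch of at least 50 bases at 95% identity or more with another gene; for Mars this is the overlap with its neighbour Ddit3.

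The promoter of Lars2 is shown because the results turn on this gene. It is the 250 bases before the RefSeq start, chr9:123366677-123366926 on the plus strand of GRCm38.p6, which is the assembly of mm10. Capitals mark the GC boxes, GGGCGG or its reverse complement CCGCCC, found at positions -116 and -85 from the start.

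Lars2: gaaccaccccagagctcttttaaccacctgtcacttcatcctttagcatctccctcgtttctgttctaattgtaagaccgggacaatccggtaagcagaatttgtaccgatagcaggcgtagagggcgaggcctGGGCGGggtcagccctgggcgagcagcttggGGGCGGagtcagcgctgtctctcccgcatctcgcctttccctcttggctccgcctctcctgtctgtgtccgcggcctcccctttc

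Promoter windows of 300 bases, from 250 before to 50 after the start, were at hand in RefSeq for 27 members by symbol. The GC box was in 20 of the 27, or 74.1%, and in 38.2% of the 27025 symbols of that table, which include noncoding genes. It was in 11 of 14 mitochondrial members and in 9 of 13 others. Lars2 shares this element with most of the family.

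The core of the amino acid response element, TGATGCAA or its reverse complement TTGCATCA, was searched on both strands because ATF4 with C/EBP factors is known to bind it in synthetase genes. It occurred in 4 of the 27 windows, or 14.8%, and in 1.03% of all symbols. All 4 were cytosolic enzymes, namely Aars, Tars, Yars and Iars. Tars, Yars and Iars are shown, as 30 bases in the direction of the gene, with the element in capitals. In Tars it starts at position -15 from the RefSeq start (chr15:11399655-11399684, minus strand). In Yars it starts at 4 (chr4:129189895-129189924, plus strand) and in Iars at 8 (chr13:49682126-49682155, plus strand). For Yars the counted transcript starts before this RefSeq start, at 129189795. In Aars, which is not shown, the element starts at -112.

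Tars: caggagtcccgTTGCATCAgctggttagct
Yars: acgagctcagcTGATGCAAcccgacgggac
Iars: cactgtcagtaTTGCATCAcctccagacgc

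Their levels were 1.71 and 1.62 RPKM for Tars, 1.11 and 0.840 for Yars, and 1.97 and 2.84 for Iars, all within the range of the other cytosolic enzymes. Aars, the other gene with the element, had 0.452 and 0.491 RPKM. It ranked 18 among the cytosolic enzymes in sort 1 and 19, the lowest, in sort 2. A match is a description of the sequence and shows no binding in these cells. Of 11 genes of the amino acid response 7 were detected, with medians of 1.78 and 1.51 RPKM. Atf4 itself led with 18.2 and 20.6 RPKM, followed by Psat1, an enzyme of serine synthesis, with 4.07 and 6.88. Asns, asparagine synthetase, had 0.192 and 0.409 RPKM and was the member of this list called different between the sorts, by 1.06 on the log2 scale (adjusted p = 0.0222, exact binomial test with Benjamini-Hochberg adjustment; 0.973 in the edgeR exact test).

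The sorts were then compared gene by gene by an exact binomial test (two-sided) of the counts given TMM-scaled library sizes, and a gene was called where it differed by a fold of 2 or more with a Benjamini-Hochberg adjusted p under 0.05. Of the 38 members, all tested, 4 were called, beside 7.95% of all tested genes. In sort 1 Lars2, Farsa and Ears2 were higher, where 4.9% of the tested genes were, and Tarsl2 was higher in sort 2, where 3.05% were. At any fold, 16 of 38 passed the adjusted p, beside 44.4% of all tested genes, with 8 higher in sort 1 (background 21.6%) and 8 higher in sort 2 (background 22.8%). Both counts of members are near the background. Over the members the log2 ratios of sort 2 to sort 1 had a median of 0.02 against -0.00031 over all tested genes. The monocyte and macrophage markers, whose sums are given above, and Rn45s were higher in sort 1. Scaled counts were higher in sort 2 for 8 of 10 eosinophil, 6 of 10 neutrophil, 6 of 6 erythroid and 2 of 2 cycling cell markers. The part of these markers and of Rn45s in the differences between the sorts was not tested.

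Lars2 differed most, with a log2 ratio of sort 2 to sort 1 of -2.71 (95% counting interval -2.76 to -2.67), or 6.55-fold higher in sort 1. Its adjusted p was below the smallest number the computation holds. With the exact test of edgeR, which adds a common dispersion estimated from both libraries, its adjusted p was 9.55e-05. It was the only member of 38 called by that test, beside 0.267% of all tested genes, and 3 members had an unadjusted p under 0.05. Rn45s had a log2 ratio of -3.29.

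Farsa had 151 and 59 reads and a log2 ratio of -1.26 (-1.75 to -0.84; adjusted p = 1.08e-08, exact binomial test). After a correction for transcript GC content, which was 56.6% for Farsa, its log2 ratio was -0.98, short of a fold of 2. GC content and the log2 ratio had a Spearman correlation of -0.54 over 8680 genes of 100 or more reads, given as a description because the genes share the same libraries. Its adjusted p in the edgeR exact test was 0.508.

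Tarsl2 had 43 and 87 reads and a log2 ratio of 1.05 (0.54 to 1.65; adjusted p = 0.000213, exact binomial test). The fold fell short of 2 with Rn45s left out of the library totals, with the deposited RPKM values and after the GC correction, at log2 ratios of 0.98, 0.99 and 0.95. Its adjusted p in the edgeR exact test was 0.830. Ears2 had 12 and 2 reads and a log2 ratio of -1.76 (-5.72 to -0.35; adjusted p = 0.0324, exact binomial test), and 0.684 in the edgeR exact test. It was not called without the filter on reads, and at a minimum of 50 reads it was not tested.

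Among the uncalled members, Iars and Dars had log2 ratios of 0.60 and 0.51, and Iars2 had 0.49, with adjusted p of 1.47e-08, 3.45e-07 and 4.24e-06 in the exact binomial test. All 3 were higher in sort 2 by less than a fold of 2. Of the 38 members 28 lay within a fold of 1.5. Of all members 22 had at least 100 reads in both sorts, while 10 had under 50 in at least 1 sort. The counting intervals of the latter were wide, as for Sars2, with 18 and 12 reads and a log2 ratio from -1.70 to 0.62.

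**Figure D3:**
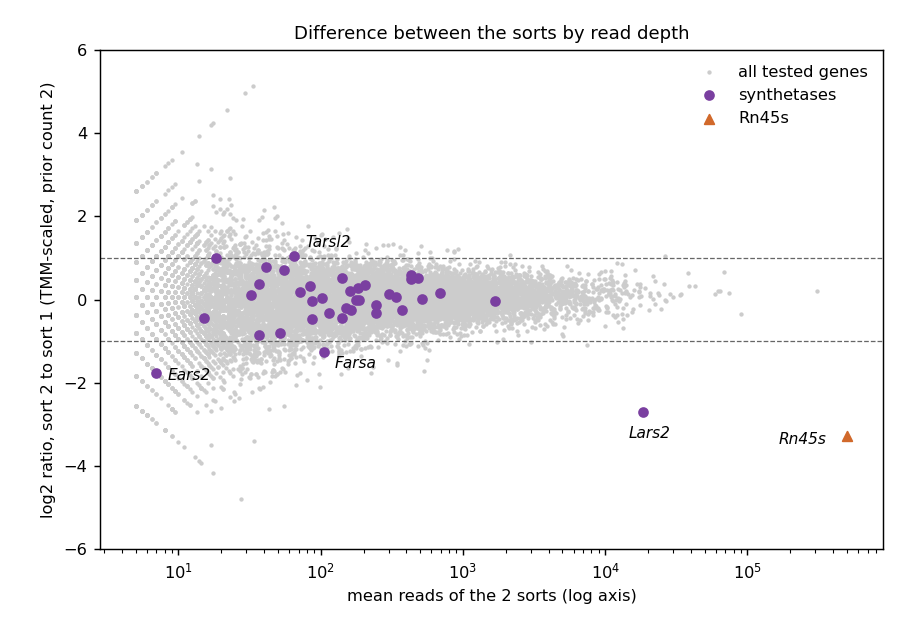
Log2 ratio of sort 2 to sort 1 against mean reads of both sorts on a log axis, with all tested genes in grey, the 38 synthetases as purple circles and Rn45s as a triangle; dashed lines mark a fold of 2, and 6 genes lie beyond the vertical axis. Lars2 at -2.71 lies below every other synthetase, and Rn45s lies at -3.29.

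Related steps of translation were at the following levels. Among 13 mitochondrial translation factors, 6 passed the detection minimum and the median levels were 1.14 and 0.832 RPKM. The highest were Gatc and the elongation factor Gfm1 at 2.84 and 2.63. Tufm, the mitochondrial elongation factor that delivers charged tRNAs, was called higher in sort 1, with 88 and 29 reads and a log2 ratio of -1.47 (adjusted p = 9.64e-07, exact binomial test; 0.397 in the edgeR exact test). It was the called member of that list. Gatc was above Iars2, the highest mitochondrial synthetase after Lars2, in both sorts.

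The 5 cytosolic elongation factors all passed it, at median levels of 15.8 and 12.6 RPKM. The highest was Eef1a1, which carries charged tRNAs to the ribosome, at 92.7 and 76.0, before Eef2 at 70.0 and 53.8. By the exact binomial test 0 of 5 were called at a fold of 2, while at any fold 5 of 5 were higher in sort 1 with an adjusted p under 0.05, beside 21.6% of all tested genes. In the edgeR exact test 0 of 5 were called. Of 7 genes of tRNA maturation and quality 4 were detected, with Trnt1, which adds the CCA end, at 4.23 and 5.35 RPKM and Ptrh2 at 2.32 and 3.10. Elac2, which trims the tail of tRNA precursors, was called higher in sort 1, with 82 and 36 reads and a log2 ratio of -1.08 (adjusted p = 0.000293, exact binomial test). Its adjusted p in the edgeR exact test was 0.824.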

How the data were processed

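Reads of 2 stranded poly(A) libraries made with dUTP, per the labels' protocols, were aligned with STAR 2.4.0c to mm10, per the submitters' processing notes. Which program counted the reads is not stated. For every transcript, or set of transcripts with the same ends, the authors deposited a raw read count and an RPKM value. Table totals were 25.0% and 22.9% of the read number that the counts and RPKM imply, so these RPKM values are lower than the table totals would give. Counts and RPKM were summed over the 26099 rows by gene symbol.

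Log2 ratios used TMM-scaled counts (edgeR 4.0.16) with a prior count of 2. The exact binomial test (scipy 1.17.1) covered genes with a summed count of 10 or more. It was run on simulated data with sampling noise only and with the estimated dispersion added. A required outcome was set for the first setting alone. The run therefore does not vouch for calls where libraries vary beyond sampling noise. The quasi-likelihood test could not be fitted, since 2 libraries leave 0 residual degrees of freedom. Counting intervals are exact 95% binomial ones. Alternatives were DESeq2 1.42.0 size factors, total counts, other minimums, pseudocounts, prior counts and folds, the edgeR exact test, the row with most reads, a lowess correction for GC content of GENCODE M21 transcripts matched by RefSeq accession, and leaving out each sort. Shared stretches were sought with BLAST 2.17.0 against GENCODE transcripts.

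Members are described by class. The genes named were Lars2, the 5 highest and 3 lowest of each class, all called members, the neighbours of Lars2, and the 2 highest and any called genes of related lists; others are named where a pair, complex or sequence is described. The members and lists were chosen with earlier results of these data known. No label says that the 2 sorts share mice, and their sex-linked reads point to mice of different sex. A p-value of the exact binomial test compares the reads of 2 libraries with sampling noise alone and measures no spread between replicates. The values of 1 mitochondrial member enter the counts and medians but are not reported here.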

Additional observations from a re-analysis of the deposited data

How the results depend on the processing

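Members detected numbered 13 at an RPKM of at least 2 and 37 at a CPM of at least 1. The cytosolic median of 2.03 RPKM became 2.83 with means, 2.55 over detected members and 8.95 with RPKM from the table totals without Rn45s, the last chosen after seeing the data. The mitochondrial median of 0.703 became 7.64, 2.19 and 3.10 under the same changes. The difference of class medians, 0.84, became 1.43 with a pseudocount of 0.1, 0.30 with 5 and 0.57 with means. The mean log2 ratio of Lars2 to the other mitochondrial enzymes, 7.04, became 4.71 against the highest of them, and 5.51 to 8.58 when each sort was left out. The cytosolic enzyme was higher in 10 pairs from CPM or from single rows, where Wars fell below Wars2 in sort 2.

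Members called numbered 1 by the edgeR exact test, 9 at a fold of 1.5 and 16 at any fold. Over all genes the count of 981 became 33 by the edgeR exact test, 475 at a minimum of 50 reads, 2246 at a fold of 1.5 and 5481 at any fold. Of 342 log2 ratios of single members under alternatives, 330 stayed called, or stayed uncalled and within their counting interval; 7 lost their call, 2 gained one and 3 uncalled ones left their interval. Some of the 342 could hardly move. The edgeR setting kept the main log2 ratios, and the row with most reads changed the counts of Qars and Wars only. The RPKM and GC settings kept the main adjusted p. No called member changed sign. Without a filter on reads, and at a minimum of 50 reads, 3 members were called, without Ears2. Dars moved to 0.32 and Vars to -0.03 after the GC correction, and Qars to 0.09 from its row with most reads, a choice made after seeing the data; the cause was not tested. Pars2 was called with total counts, at 1.06. Mars2 passed the fold after the GC correction, at -1.19, though its GENCODE transcript has 11294 bases and the tables imply 2893. No paired analysis was possible because both libraries belong to 1 group. Depth limits the mitochondrial members most: 10 members had under 50 reads in at least 1 sort, and all of them other than Tarsl2 are mitochondrial.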
